A study of Mus musculus with 64 samples.

Results

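A total of 107 spotted features of the array's MSK series were lower in TNF-treated than in vehicle-treated 3T3-L1 adipocytes and changed little when aspirin and troglitazone followed. They were chosen by their values on the odd-numbered arrays alone. The mean of the TNF arrays had to lie at least 0.5 log units under that of the vehicle arrays, and the combination and TNF means had to differ by less than 0.2. The 107 were 1.61% of 6664 features whose identifier begins with MSK, of 6963 features in all. They were 107 of the 168 MSK features that met the first condition. Of the other 61, 45 were at least 0.2 higher and 16 at least 0.2 lower in the combination than in TNF. All differences and tests below come from the even-numbered arrays, which took no part in the choice, unless the odd numbers are named. The identifiers name a plate, a well row and a well column (MSK13m2 is plate 13, row m, column 2). The deposited data do not pair them with genes and 0 of 6963 matched the RefSeq gene table, so no feature has a gene name here and adipocyte marker genes could not be looked up.

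3T3-L1 is a mouse fibroblast line that is differentiated in culture into lipid-storing adipocytes. TNF is an inflammatory cytokine that signals through NF-κB and MAP kinases in fat cells, lowers the expression of many adipocyte genes, including those under the nuclear receptor PPARγ, and impairs insulin-stimulated glucose uptake. Troglitazone (TGZ) is a thiazolidinedione, a class of insulin sensitiser that activates PPARγ. Aspirin (acetylsalicylic acid, ASA) inhibits cyclooxygenases and, at high concentrations, NF-κB signalling.

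The study held 21 combination arrays (TNF+ASA+TGZ), 21 TNF arrays and 22 vehicle arrays, each comparing the RNA of 1 culture (Cy5) with a pool of untreated differentiated cells (Cy3). The even-numbered arrays were 10 combination, 10 TNF and 11 vehicle arrays, and 11 odd-numbered arrays of each group chose the members. Per the labels, all cultures were used between days 8 and 12 of differentiation. Combination cultures had 48 h of TNF at 3 ng/ml and then 24 h of 5 mM ASA with 10 µM TGZ. TNF cultures had TNF at 3 ng/ml for both periods. Vehicle cultures ended with 24 h in medium holding 0.2% albumin. The source text of the vehicle arrays also lists the 48 h of TNF, against their titles, so it is not settled whether these cells were exposed to TNF at first. Nor do the labels settle whether TNF was still present beside the drugs, so adding the drugs and withdrawing TNF cannot be told apart. Replicates were grown and harvested on their own, over 6 days and 5 passages that are not tied to arrays. Odd- and even-numbered arrays may therefore share a day or a passage. All cultures are of 1 cell line, and in such bulk RNA fewer cells of a kind and less RNA per cell cannot be told apart.

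Values are deposited log ratios of culture to pool, with base 2 assumed where a ratio is given. They were normalized by the authors in a way not given in the sources used here, and the sign follows the dyes in the labels. If the ratio was turned before deposit, every lower below is a higher. Each even-numbered array had a median between -0.05 and 0.04 over all features. The SD over features ran from 0.367 to 0.535 on combination arrays, from 0.265 to 0.498 on TNF arrays and from 0.188 to 0.600 on vehicle arrays, where vehicle array 6 was the highest. Of 465 pairs of even-numbered arrays, 13 correlated under -0.3, the lowest at -0.45, and all 13 held a vehicle array.

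The members were lower in TNF than in vehicle on the arrays that had not chosen them. Of the 107, 104 (97.2%) fell at an adjusted p under 0.05 (limma, Benjamini-Hochberg over 6963 features), and 0 rose. The background was high. Of all features 25% were called lower in this comparison, and of MSK features 24.4%. The median difference over the members was -0.63 log units, a ratio of 0.644 at base 2, against a median of -0.03 over all features. The quartiles of the members were -0.78 and -0.46, and the whole range was -1.56 to -0.25. A difference of -0.5 or lower was reached by 76 members (71%), against 5.86% of all features. One of -1 or lower was reached by 7 members, against 27 of all 6963 features. The median of the same difference in the odd numbers, which chose the members, was -0.59. In the even numbers 31 members (29%) lay above -0.5. The correlation of the odd- and even-numbered differences across the 107 members was 0.80. This is a description across features that share arrays within each set.

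**Figure D1:**
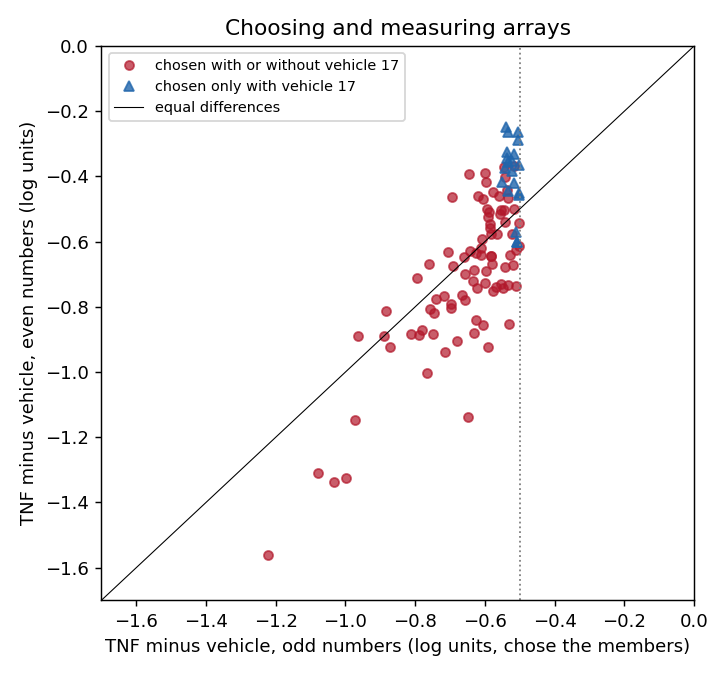
TNF minus vehicle on the even-numbered arrays (vertical axis, log units) against the same difference on the odd-numbered arrays that chose the members (horizontal axis), 1 point for each of 107 features. The dotted line marks the limit of -0.5 used in choosing and the solid line equal differences; triangles are the 20 features chosen only because of vehicle array 17, and they lie between -0.60 and -0.25 on the vertical axis.

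The member median was below 0 on every TNF array. The median of the 107 members on an array ran from -0.82 to -0.36 on the 10 combination arrays, from -0.79 to -0.28 on the 10 TNF arrays and from -0.06 to 0.10 on the 11 vehicle arrays. No combination or TNF array reached the range of the vehicle arrays. TNF array 6, at -0.28, was the highest of its group, and the next was array 16 at -0.50. Array 6 also had the lowest spread of all TNF arrays, with an SD of 0.265 over all features. Without it the median difference over the members was -0.67. Between same-numbered arrays, the median of TNF minus vehicle lay between -0.72 and -0.59 for 9 of 10 numbers and was -0.32 for number 6, where 69 of 107 members were lower in TNF. For the other numbers 94 to 107 members were lower.

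**Figure D2:**
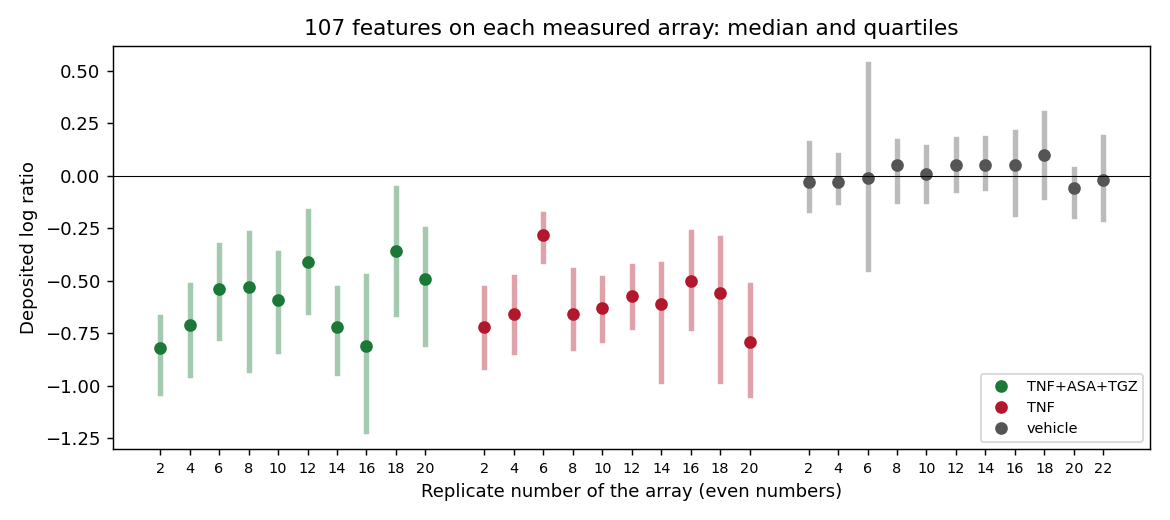
Median (point) and quartiles (bar) of the 107 features on each even-numbered array, in deposited log ratios, for the combination (green), TNF (red) and vehicle (grey) groups, with the replicate number below. Combination arrays lie between -0.82 and -0.36 and TNF arrays between -0.79 and -0.28, all under the vehicle arrays at -0.06 to 0.10; vehicle array 6 has the widest bar of its group.

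Single members overlapped more than their medians. All 10 TNF arrays lay under the vehicle mean for 83 members, against 16.2% of all features. TNF and vehicle values did not overlap at all for 12 members (11.2%), against 1.09% of all features. Within a group the members also varied more than most features. The median SD of a member was 0.336 over combination arrays, 0.288 over TNF arrays and 0.278 over vehicle arrays, while for all features it was 0.263, 0.224 and 0.239 in the same groups.

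The 2 largest falls were those of MSK13m2 and MSK43f7. On the combination arrays MSK13m2 had a lowest value of -2.02, a median of -1.43 and a highest value of 0.10. On the TNF arrays these were -2.18, -1.68 and -0.29, and on the vehicle arrays -0.84, 0.31 and 0.93. Most treated arrays lay under all vehicle arrays, but TNF arrays 4 and 10 and combination array 6 fell within the vehicle range. MSK13m2 averaged -1.52 ± 0.616 (SD, n = 10) in TNF and 0.04 ± 0.670 (SD, n = 11) in vehicle, and limma gave a difference of -1.56 (SE 0.248, adjusted p = 1.59e-05). The ratio of TNF to vehicle was 0.339 at base 2. The combination differed from TNF by 0.20 (95% interval -0.31 to 0.72, adjusted p = 0.704 in limma) and from vehicle by -1.36 (adjusted p = 7.64e-05 in limma).

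MSK43f7 ran from -2.29 to -0.16 with a median of -1.17 on combination arrays, from -2.33 to -0.52 with a median of -1.08 on TNF arrays, and from -1.14 to 0.61 with a median of 0.15 on vehicle arrays. The treated and vehicle ranges overlapped, although all 10 combination and all 10 TNF arrays lay under the vehicle mean. Its TNF minus vehicle difference was -1.34 (SE 0.259, adjusted p = 0.000147 in limma), and its combination minus TNF difference was 0.10 (95% interval -0.44 to 0.64). The interval of the drug difference was wide for both features, and their SDs within a group ran from 0.572 to 0.711.

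In the main fit, which took all arrays as independent, no member differed past the threshold after the drugs. Between the combination and TNF, 0 of 107 members passed at an adjusted p under 0.05 in limma, against 8.62% of all features and 8.45% of MSK features. At an unadjusted p under 0.05 there were 7 members, 5 higher and 2 lower in the combination, against 21.6% of all features, and the smallest adjusted p was 0.0701. The median difference over the members was 0.03 log units (range -0.39 to 0.42), beside 0.02 over all features, and it was -0.02 without combination array 18 and 0.06 without TNF array 6. It was above 0 for 59 members and below 0 or at 0 for 48. A difference of less than 0.2 in size was seen for 95 members (88.8%), against 72.5% of all features. The limit of 0.2 had been applied to the odd numbers only.

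A p above the threshold does not show equal levels, so the intervals were read as well. The 95% interval of the combination minus TNF difference lay wholly within 0.5 of 0, the size used in choosing, for 92 members (86%). The share was 78.5% for all features, so this count is not far from the background. For the other 15 members the interval reached past 0.5 in at least 1 direction. The median half-width of the interval was 0.269 for the members and 0.231 for all features. A rise of 0.25 log units or more lay outside the interval for 47 of the 107. The share over all features was not counted, so nothing about the members is read from this.

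Results depended on how same-numbered arrays were treated. With the replicate number as a block, 2 members passed between the combination and TNF, and 14.5% of all features did, or 1009 features against 600 without the block. They were MSK40l6, lower by 0.32 in the combination (difference -0.32, adjusted p = 0.0354 in limma), and MSK29l24, higher by 0.24 (adjusted p = 0.0486 in limma), of which the second is named because it was 1 of these 2. With the block 106 of the 107 were called lower in TNF than in vehicle, against 29% of all features, and 106 lower in the combination than in vehicle, against 23.7%. The block brought 100 intervals of members within 0.5. The share over all features was not counted with the block, so nothing about the members is read from this. A few other settings passed 1 or 2 members. With array weights MSK03i3 and MSK41o21 passed, without vehicle array 6 MSK03i3 and MSK29l24, without TNF array 6 MSK41o21, and without combination array 10 or 12 MSK40l6. The share of all features called was 12.1% with array weights, 12.4% without vehicle array 6 (866 features), 8.09% without TNF array 6, and 8.9% and 7.18% without combination array 10 and 12.

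**Figure D3:**
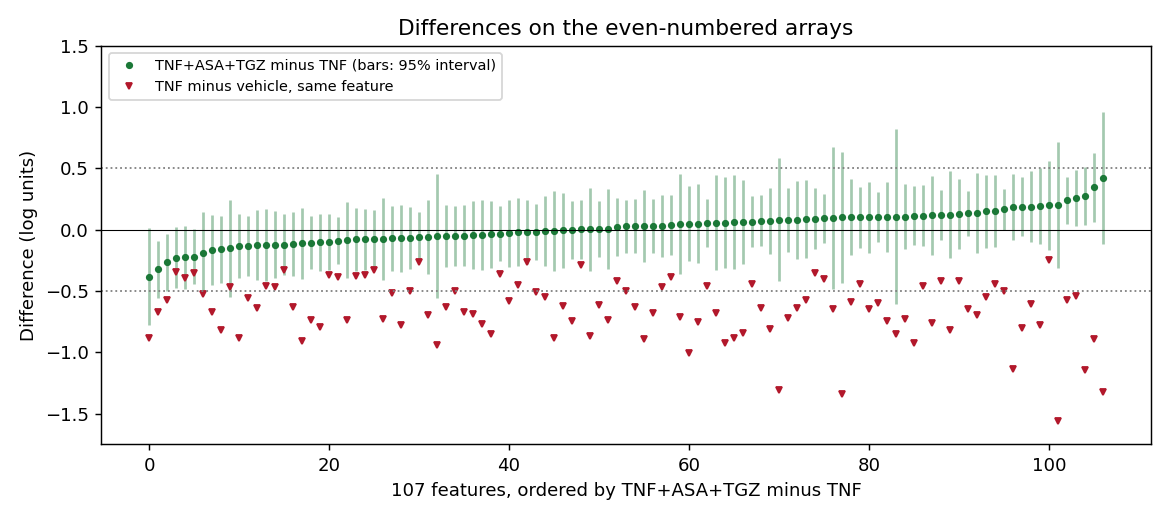
Combination minus TNF with its 95% interval (green) and TNF minus vehicle (red triangles) for the 107 features on the even-numbered arrays, in log units, ordered by the first. The green points run from -0.39 to 0.42 around 0 and 92 of the intervals stay within the dotted lines at -0.5 and 0.5, while the red triangles run from -1.56 to -0.25.

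The members with the highest and lowest combination minus TNF differences show how far single features went. MSK42k18 had the highest. It ran from -1.89 to 0.52 with a median of -1.10 on combination arrays, from -2.08 to -0.71 with a median of -1.14 on TNF arrays, and from -0.88 to 0.89 with a median of 0.33 on vehicle arrays. Combination arrays 6 and 10, at 0.52 and 0.46, lay far over the other 8, of which the highest was -0.54, and the medians of the combination and TNF arrays were nearly equal. The difference of means was 0.42 (SE 0.265, 95% interval -0.12 to 0.96, adjusted p = 0.378 in limma), and 0.27 without combination array 6 and 0.28 without array 10.

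MSK41o21 followed with a value of 0.35 (SE 0.137, 95% interval 0.07 to 0.62, adjusted p = 0.117 in limma). It ran from -1.08 to -0.23 with a median of -0.61 on combination arrays, from -1.31 to -0.15 with a median of -0.96 on TNF arrays and from -0.91 to 0.58 with a median of 0 on vehicle arrays. Of the combination arrays 9 of 10 lay over the TNF mean and all 10 under the vehicle mean. Its fall in TNF was -0.89 (adjusted p = 7.76e-06 in limma), and in the combination it was still lower than vehicle by -0.54 (adjusted p = 0.00198 in limma).

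At the other end were MSK03i3 and MSK40l6, with lower means in the combination than in TNF that did not pass the test. MSK03i3 ran from -1.44 to -0.84 with a median of -1.24 on combination arrays, from -1.49 to -0.32 with a median of -0.82 on TNF arrays and from -1.84 to 0.74 with a median of 0.13 on vehicle arrays. Vehicle array 6 lay at -1.84, under every treated array. The combination minus TNF difference was -0.39 (SE 0.195, 95% interval -0.78 to 0.01, adjusted p = 0.245 in limma), and 1 of 10 combination arrays lay over the TNF mean. The SD was 0.196 over combination arrays, 0.315 over TNF arrays and 0.708 over vehicle arrays. All groups enter the spread that the fit used. Without vehicle array 6, which is in neither group compared, the same difference passed (adjusted p = 0.0379 in limma). In that setting 12.4% of all features were called.

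MSK40l6 separated treated from vehicle arrays completely. It ran from -1.61 to -0.59 with a median of -0.90 on combination arrays, from -0.88 to -0.31 with a median of -0.65 on TNF arrays and from -0.15 to 0.41 with a median of -0.05 on vehicle arrays. Combination arrays 2 and 16, at -1.54 and -1.61, were the lowest. The combination minus TNF difference was -0.32 (SE 0.114, 95% interval -0.55 to -0.09, adjusted p = 0.0701 in limma), and the TNF minus vehicle difference was -0.67 (SE 0.111, adjusted p = 2.78e-05 in limma).

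**Figure D4:**
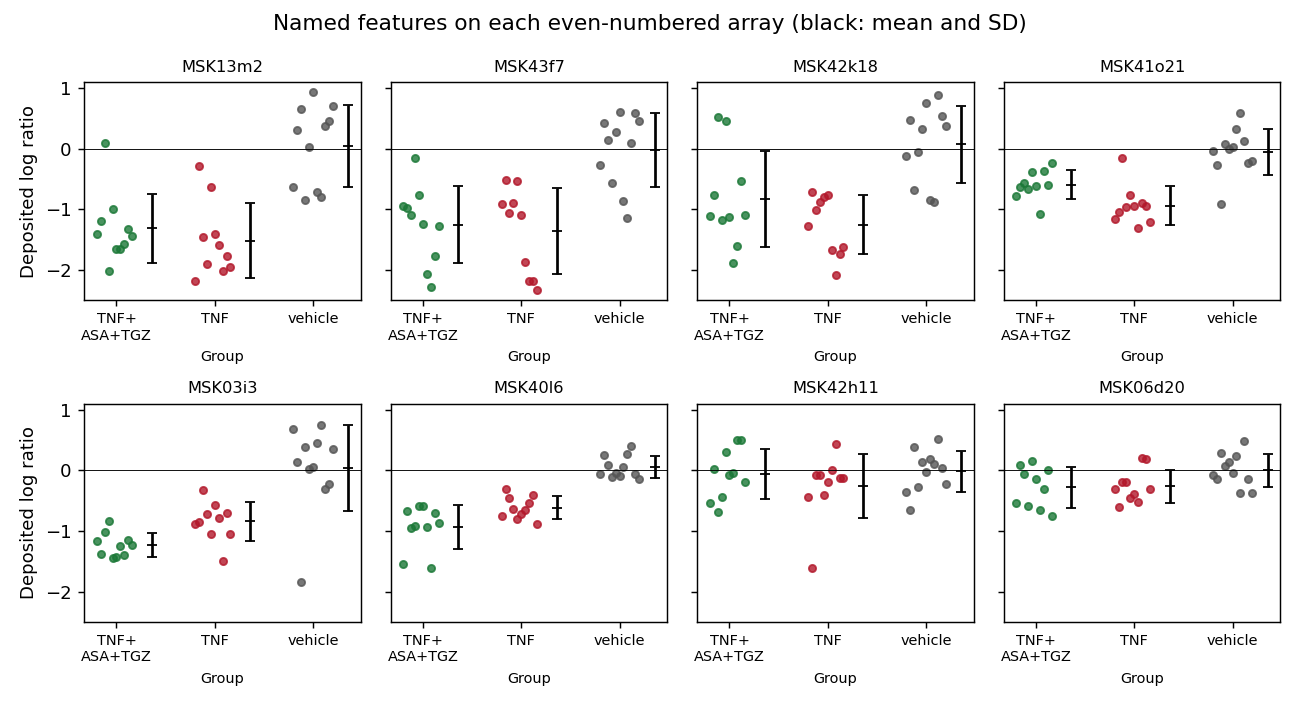
Deposited log ratios of the 8 named features on each even-numbered array, by group from left to right (combination, TNF, vehicle), with the mean and SD in black; the vertical axis is shared. MSK40l6 has no overlap between treated and vehicle arrays, MSK42k18 has 2 combination arrays at 0.52 and 0.46, and MSK42h11 and MSK06d20 overlap in all groups.

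Relative to vehicle, the combination left the members low. Of the 107, 99 (92.5%) were lower in the combination than in vehicle (limma, adjusted p under 0.05), against 18.8% of all features, and 0 were higher. The median difference was -0.61 (range -1.36 to -0.05), a ratio of 0.653 at base 2. This comparison shares the vehicle arrays with that of TNF and vehicle and the combination arrays with that of the combination and TNF. A difference of -0.5 or lower was reached by 74 members (69.2%), against 5.85% of all features. All 10 combination arrays lay under the vehicle mean for 64 members, against 11.2% of all features, and combination and vehicle values did not overlap for 13 (12.1%), against 1.29% of all features.

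Same-numbered arrays gave medians of both signs. Between them, the median over the members of combination minus TNF was -0.26 for number 6 and -0.25 for number 16, and 0.27 for number 18 and 0.24 for number 20. The SD of the 10 such medians was 0.184. The spread of the array medians within the combination and TNF groups gives 0.213 for unpaired arrays. Both values come from the same arrays, and same-numbered arrays were correlated. Their comparison therefore cannot show whether the drug difference varied between numbers. Over numbers from 12 upwards the median of the 107 differences was 0.12, and over numbers up to 11 it was -0.07. A limma test of the difference between these sets of numbers called 0 of 107 members in any of the 3 comparisons. At an unadjusted p under 0.05 it gave 7 members in the comparison of TNF with vehicle, 3 in that of the combination with TNF and 8 in that of the combination with vehicle. Of all features 5.66%, 4.68% and 9.19% passed in the same order, and nothing is read from these counts. TNF minus vehicle had a median of -0.66 over numbers from 12 upwards and -0.61 over numbers up to 11.

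Pairs of members tended weakly to deviate in the same direction on an array. After group means were removed, the correlation of a pair of members over the 31 even-numbered arrays had a median of 0.13 over 5671 pairs, against -0.001 for all pairs of MSK features. It was above 0 for 66.9% of member pairs and for 49.9% of all MSK pairs. These pairs share arrays and are a description only. All MSK pairs include features raised by TNF as well as lowered ones. The value for other lowered features is not given here, so the correlation is not read as particular to the members. In 11 pairs, made of 16 members, the correlation was at least 0.9. The highest, 0.94, joined MSK29c15 and MSK43g20 on different plates, named here after their values were seen. MSK29c15 differed by -0.73 and MSK43g20 by -0.68 between TNF and vehicle, and by -0.08 and 0.03 between the combination and TNF. Whether such pairs carry the same transcript cannot be read from the identifiers.

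The members lay on all 26 plates of the MSK series, with 1 to 7 on a plate, and in all 16 well rows. They were not spread evenly over the rows. Rows d, h, l and p held 47 members (43.9%) and 22.8% of MSK features. Rows c, g, k and o held 29 (27.1%, with 24.0% of MSK features), rows a, e, i and m 18 (16.8%, with 25.8%) and rows b, f, j and n 13 (12.1%, with 27.4%). Row d alone held 17 of the 107, 6 of them on plate 06 and 4 on plate 22.

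Vehicle array 17, an odd-numbered array used in choosing, followed the same rows. Its median over MSK features was 0.47 in rows d, h, l and p, 0.27 in rows c, g, k and o, -0.04 in rows b, f, j and n and -0.83 in rows a, e, i and m. On the other odd-numbered vehicle arrays the medians of these rows lay between -0.20 and 0.16. Without array 17 the same rule chose 97 features, of which 87 were among the 107. Rows d, h, l and p then held 29.9% of the chosen features, with 22.8% of MSK features. Rows c, g, k and o held 29.9% (with 24.0%), rows a, e, i and m 25.8% (with 25.8%) and rows b, f, j and n 14.4% (with 27.4%). The spread over rows thus stayed uneven without array 17. Of the 20 members that needed array 17, 18 lay in rows d, h, l and p.

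These 20 features also fell on the even-numbered arrays, which do not include array 17, but by less. Their median TNF minus vehicle difference was -0.37, against -0.68 for the other 87, and 18 of the 20 and 86 of the 87 passed the test. Of the 20, 3 reached -0.5, and of the 87, 73 did. For the 97 features chosen without array 17 the median was -0.68, with 96 called lower in TNF and 0 called between the combination and TNF. The rows also differed on the measuring arrays. Well row held 33.8% of the variance on vehicle array 18, 33.2% on vehicle array 22, 31.2% on TNF array 16 and 20.7% on combination array 18. The lowest shares in these groups were 0.77% for vehicle, 0.35% for TNF and 0.35% for the combination. The median TNF minus vehicle difference of all MSK features in rows a, e, i and m was -0.13 and that in rows d, h, l and p 0.06. With the mean of each well row subtracted on each array, 106 of the 107 members were called lower in TNF than in vehicle, at a median of -0.65. In that setting 3381 of 6963 features were called in either direction, against 3169 in the main fit. The share of all features called lower was not counted there, so nothing about the members is read from the 106.

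**Figure D5:**
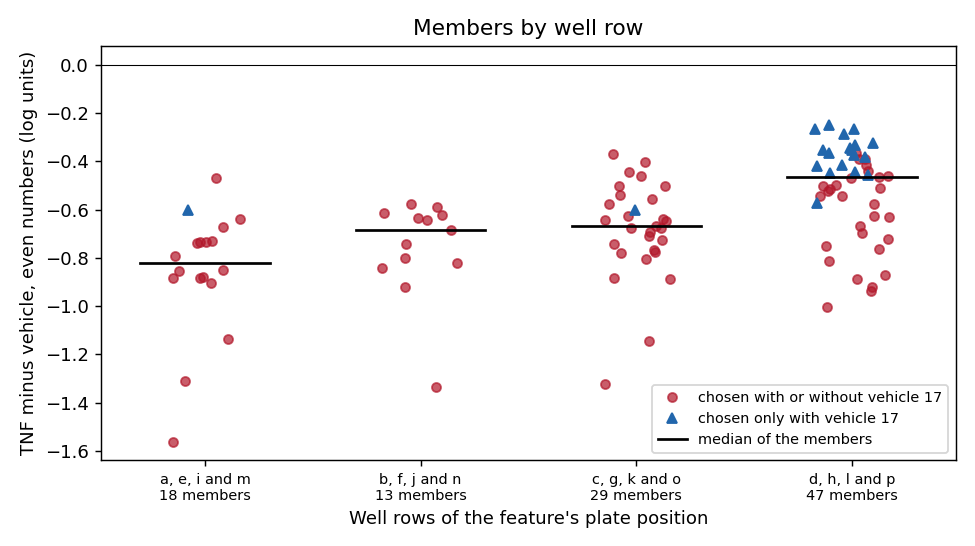
TNF minus vehicle on the even-numbered arrays (log units) for the 107 features, grouped by the well row in their identifier; the black line is the median of the members in those rows. Rows d, h, l and p hold 47 members and 18 of the 20 features chosen only with vehicle array 17 (triangles), and their median of -0.46 is closer to 0 than that of the other rows, -0.82, -0.69 and -0.67 from left to right.

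The 2 members with the smallest fall were both among the 20. MSK42h11 ran from -0.68 to 0.50 with a median of -0.06 on combination arrays, from -1.61 to 0.44 with a median of -0.12 on TNF arrays and from -0.66 to 0.52 with a median of 0.04 on vehicle arrays. The 3 groups overlapped, with 1 TNF array far under the rest, and the TNF minus vehicle difference was -0.25 (SE 0.176, 95% interval -0.61 to 0.11, adjusted p = 0.249 in limma). MSK06d20 ran from -0.76 to 0.16 with a median of -0.23 on combination arrays, from -0.60 to 0.21 with a median of -0.31 on TNF arrays and from -0.38 to 0.49 with a median of -0.05 on vehicle arrays. Its difference was -0.26 (SE 0.124, adjusted p = 0.0797 in limma), and -0.30 with the replicate block (adjusted p = 0.0293 in limma). The third member that missed the threshold, MSK27b9, was lower by a mean difference of -0.64 (limma, SE 0.279, adjusted p = 0.0575), with SDs of 0.688, 0.719 and 0.701 in the combination, TNF and vehicle groups. With the block it passed (difference -0.62, adjusted p = 0.000467 in limma), while MSK42h11 did not (adjusted p = 0.119 in limma). MSK27b9 was chosen for mention because it was 1 of these 3.

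Features near the limits of the rule were measured on both sets of arrays. MSK07h11, tied with MSK17l6 as the member nearest the first limit, had a TNF minus vehicle difference of -0.501 in the odd numbers and -0.456 in the even numbers, and MSK27g2, just outside it, had -0.499 and -0.650. For the limit on the drug difference, the member MSK07d21 had a combination minus TNF difference of -0.197 in the odd numbers and -0.012 in the even numbers. MSK23l6, just outside that limit, had 0.205 and -0.152.

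The other MSK features lowered by at least 0.5 on the odd-numbered arrays had median drug differences further from 0 on the even-numbered arrays. The 45 that had been at least 0.2 higher in the combination had a median combination minus TNF difference of 0.23, and 9 were called higher and 0 lower in limma, where 3.16% of all features were called higher. The 16 that had been at least 0.2 lower had a median of -0.25, with 3 called lower and 0 higher, where 5.46% of all features were called lower. The 107 lay between these at 0.03, with 0 called. A combination minus TNF difference under 0.2 in size was seen for 19 of the 45, 7 of the 16 and 95 of the 107. The share over all features was 72.5%. The median TNF minus vehicle differences were -0.54 for the 45 features, -0.72 for the 16 and -0.63 for the 107. No test was made between the 3 sets, and each took its place from the drug difference on the odd-numbered arrays.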

How the data were processed

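Spotted 2-colour arrays of 64 cultures were used, from 20 µg of total RNA each per the labels. Deposited values were read as log2 ratios of culture (Cy5) to pool (Cy3), with the dyes as given per the labels. How the authors corrected for background and normalized, and in which log base, is not given in the sources used here. The table held 6963 features, no missing value (0), values from -3.48 to 4.16 and 0 pairs of identical arrays. Depth does not apply to arrays, and the number of arrays limits the precision.

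Members were chosen on odd-numbered arrays (group means) and measured on even-numbered ones, numbers and groups coming from the titles. Group means of the 31 even-numbered arrays were fitted to all features with limma 3.58.1 in R 4.3.3 (lmFit, eBayes, no block, 28 residual degrees of freedom). P-values are two-sided, adjusted by Benjamini-Hochberg over 6963 features per comparison, the threshold being 0.05, and intervals are 95% limma intervals. Arrays were taken as independent in this fit. Same-numbered arrays deviated together with a correlation over 0.1 in 10 of 10 pairs of TNF and vehicle and 10 of 10 of the combination and TNF. For the combination and vehicle the count was 9 of 10. The median correlations were 0.34, 0.41 and 0.26 in that order. By this check same-numbered arrays were not independent in any of the comparisons. The p-values and intervals without the block leave this out. No label states a pairing. Results with the replicate block are therefore given beside those whose calls it changed.

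On simulated data for TNF against vehicle (6963 features, 100 changed by each size) the fit called 66% of features lowered by 0.5 and 11% of those lowered by 0.25, with 6.10% false among its calls. In the data far more features were called in this comparison, 3169. The adjusted threshold is less strict with so many calls, so the simulated rates do not carry over to the data.

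The members and the alternatives, including the division of the numbers at 11 and 12, were chosen with earlier results of these data known. Features named are those with the 2 largest and 2 smallest falls in TNF, the 2 highest and 2 lowest combination minus TNF differences, and the features nearest the limits; others are said to have been chosen after their values were seen. Gene lists could not be applied without gene names. Figures were drawn with matplotlib 3.10.9 in Python 3.11.15.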

Additional observations from a re-analysis of the deposited data

Results flagged for a closer look

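The highest or lowest array of a group stood apart in 3 of the 18 groups of 10 even-numbered arrays checked with Dixon's criterion, for the 8 named features and the median of the members. Chance flags about 1 in 20 such groups. The vehicle groups, of 11 arrays, were not checked. In them MSK03i3 was at -1.84 on vehicle array 6, and the next lowest vehicle array was at -0.30. MSK41o21 was at -0.15 on TNF array 6, and the next highest TNF array was at -0.76. Without that array its TNF minus vehicle difference was -0.98. MSK42h11 was at -1.61 on TNF array 4, and the next lowest TNF array was at -0.44. Without that array its TNF minus vehicle difference was -0.10 (adjusted p = 0.605 in limma). MSK13m2 was at 0.10 on combination array 6, and the next highest combination array was at -0.99. Without that array its combination minus vehicle difference was -1.52 and its combination minus TNF difference 0.04.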

How the results depend on the processing

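The choice of members without vehicle array 17 and after removal of well-row means was added after seeing the data. As reported, 104 of 107 members were lower in TNF and 99 in the combination, each against vehicle. Counts of 82 and 82 came with a common MAD and of 88 and 83 with quantile normalization, where the median TNF minus vehicle differences were -0.46 and -0.52. With a common MAD the median combination minus vehicle difference was -0.47. All features called in TNF against vehicle were 1784 with a common MAD and 1879 with quantile normalization, against 3169, and in the combination against TNF 187 and 235, against 600. In the combination against vehicle they were 1767 and 1759, against 2539. Totals of all features hold both directions, while the member counts hold only lower ones. At an adjusted p of 0.01 the comparisons of TNF with vehicle, of the combination with TNF and of the combination with vehicle had 1944, 210 and 1557 features, and against a difference of 0.25 they had 530, 43 and 411, with 55 and 47 members lower in TNF and in the combination. Numbers up to 11 alone gave 1349, 72 and 1178 features, 68 members lower in TNF and 38 intervals within 0.5, against 92. Numbers from 12 upwards gave 1979 and 373 features in the first 2 comparisons, 58 such intervals and 1 member, MSK11o19, between the combination and TNF, named for that call. These settings hold fewer arrays by construction. The shares of all features with such an interval or called lower were not counted in them. Nothing about the members is therefore read from these counts.

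Members chosen after quantile normalization numbered 73, with 63 of the 107 among them, of which 69 of 73 were lower in TNF and 53 intervals lay within 0.5. With a limit of 0.1 there were 52 members, 50 lower in TNF, 48 lower in the combination and 43 intervals. The counts of both choices come from the main fit. There 25% of all features were called lower in TNF, 18.8% lower in the combination, and 78.5% had such an interval. Group medians chose 104 features, of which 65 were among the 107. Between the combination and TNF, members called numbered 2 with the replicate block, where 1009 features passed, and 2 with array weights. Leaving out each of the 31 arrays gave 101 to 105 members lower in TNF, 96 to 102 lower in the combination, 0 to 2 between the combination and TNF and 83 to 94 intervals. Medians were -0.67 to -0.62 for TNF minus vehicle, -0.02 to 0.06 for the combination minus TNF and -0.64 to -0.59 for the combination minus vehicle. Features called were 2924 to 3255, 409 to 866 and 2266 to 2612.

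The reported differences of named features gave 588 values over 42 settings, of which 568 kept sign and call, 3 lost and 14 gained a call and 3 changed sign, 0 of them called. All 3 were the combination minus TNF difference of MSK43f7, at -0.006 with numbers up to 11 alone, while leaving out each array gave -0.021 to 0.216.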
